A study of Mus musculus with 3 samples.

Results

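Glucose transport and glycolysis were described here through 10 genes, from the glucose transporters Slc2a1 and Slc2a3 through Hk1, Hk2, Pfkfb3, Aldoa, Tpi1, Pgk1 and Pkm to Ldha. They were taken by gene symbol, and all 10 had a row among the 23337 gene symbols of the deposited tables. They were measured in CD4+ T cells with the label Th1, the helper subset that makes interferon gamma under the control of T-bet, isolated from Wild-type mice of the strain C57/Bl6j at 7 weeks of age. In the lymphoid group there were 2 libraries, titled as spleen although the tissue label joins spleen, lymph nodes and draining lymph nodes. In the tumour group there was 1 library, from B16-F10 tumours, a transplantable melanoma of the same mouse strain. The labels record no treatment. Whether separate or pooled animals gave the libraries is not in the labels, so that p-values here reflect only how far these libraries spread, which may be technical.

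Glycolysis turns glucose into pyruvate and yields ATP without oxygen, and lactate dehydrogenase then reduces pyruvate to lactate, which restores the NAD+ that the pathway needs. Activated T cells are known for a large increase in glucose uptake and in lactate production, even where oxygen is present, and effector CD4+ T cells depend on it more than resting ones. The transporters and hexokinases set how much glucose enters the pathway, the phosphofructokinase step is its main point of control, and most of the enzymes below it, pyruvate kinase apart, work close to equilibrium. Several of these genes are textbook targets of the hypoxia-inducible transcription factors and of Myc.

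Relative to the bulk of genes, the tumour library did not differ from the lymphoid libraries in 1 direction along the pathway. Values are FPKM (fragments per length of transcript and per depth of the library), divided by a median-of-ratios size factor, called scaled FPKM here. On that scale Pfkfb3, which makes the allosteric activator of phosphofructokinase, and Tpi1, triose phosphate isomerase, rose in the tumour library, and Pgk1, phosphoglycerate kinase, fell. As deposited, without the size factor, Pfkfb3 and Tpi1 were not higher (log2 changes of -0.12 and -0.32), and after division by library totals Pgk1 was not lower (0.03). The summed scaled FPKM of the 10 genes was 202 and 209 in the lymphoid libraries and 214 in the tumour library. Fewer cells of a type and less RNA per cell cannot be told apart in such bulk samples.

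The tumour library was the shallowest, with about 3270000 estimated fragments against 11400000 and 15400000, and its size factor was 0.58 against 1.29 and 1.33. T cell markers, Cd4 and Tbx21 among them, were present in all 3 libraries, with 11 listed genes summing to 725 and 722 scaled FPKM in the lymphoid libraries and 646 in the tumour library. The T-bet gene Tbx21 had 18 and 20.2 scaled FPKM in the lymphoid libraries and 12.9 in the tumour library. Ifng, at 12.9, 12.0 and 4.53, was the 1 gene of that list called lower. Its tumour value rested on about 10 fragments, with a 95% counting interval of 2.21 to 8.25 that held neither lymphoid value. The call of Ifng was lost once the counting error of the tumour value was added. Myeloid markers summed to 2.13 and 2.14 in the lymphoid libraries and 13.5 in the tumour library. There 11 of 15 exceeded both lymphoid values, while C1qb, C1qc, S100a8 and S100a9 were at 0. Itgam was called higher, a call also lost with counting error added. Melanocyte markers summed to 2.47, 2.86 and 5.72, and 5 of 11 exceeded both lymphoid values, with Mlana, Slc45a2 and Oca2 at 0 in the tumour library. Markers of CD8 T and NK cells summed to 24.8, 21.8 and 22, a sum carried by Klrb1c (23.6, 20.1 and 13.4), while the other 4 of 5 exceeded both lymphoid values, Cd8b1 at 0.494, 0.783 and 4.77. Endothelial markers summed to 9.76, 8.93 and 9.15, carried by Pecam1 (9.76, 8.80 and 7.70), while 3 of 5 exceeded both lymphoid values. Fibroblast markers summed to 0.0765, 0.216 and 1.42 (3 of 6 above both) and B cell markers to 2.53, 1.77 and 1.99 (1 of 6 with a row). Genes for odorant and vomeronasal receptors, which T cells are not known to use, averaged 0.472 scaled FPKM in the tumour library against 0.0335 and 0.0673. Among all genes with a mean of 1 FPKM or more, 41.3% exceeded both lymphoid values. Only 1 of 15 myeloid and 2 of 11 melanocyte markers reached that mean, and the share among lower genes was not computed. Lyz2, Csf1r and Cd68 had about 1 fragment each in the tumour library, and Cd14 about 3. The part of other cells and of background in the results below was not tested.

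The sequences upstream of 5 of the genes are shown because these are the genes that were called, or whose tumour value exceeded both lymphoid ones by the largest ratio (Hk2), or that had the highest scaled FPKM of the 10 in the tumour library (Ldha). Each is the 250 bases before an annotated RefSeq start site on GRCm38.p6, 5′ to 3′ on the gene's own strand. Capitals mark ACGTG or its reverse complement, the core of the element bound by hypoxia-inducible factors.
Pfkfb3, chr2:11553930-11554179, minus strand: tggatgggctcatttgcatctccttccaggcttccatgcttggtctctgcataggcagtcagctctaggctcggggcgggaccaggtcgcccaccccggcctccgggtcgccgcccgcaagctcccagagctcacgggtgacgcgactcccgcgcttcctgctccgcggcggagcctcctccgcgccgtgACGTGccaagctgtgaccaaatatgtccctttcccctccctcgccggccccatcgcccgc
Tpi1, chr6:124814159-124814408, minus strand: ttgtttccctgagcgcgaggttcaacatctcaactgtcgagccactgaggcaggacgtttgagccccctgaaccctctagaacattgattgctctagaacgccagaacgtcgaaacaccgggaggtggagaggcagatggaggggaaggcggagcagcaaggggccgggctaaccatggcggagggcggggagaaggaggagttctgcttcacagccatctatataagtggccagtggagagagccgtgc
Pgk1, chrX:106186850-106187099, plus strand: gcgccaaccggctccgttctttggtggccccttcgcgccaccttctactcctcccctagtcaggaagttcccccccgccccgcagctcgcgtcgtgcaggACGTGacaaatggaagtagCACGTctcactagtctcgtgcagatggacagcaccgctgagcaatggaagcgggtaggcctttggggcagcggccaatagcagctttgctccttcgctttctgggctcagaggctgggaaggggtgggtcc
Hk2, chr6:82774455-82774704, minus strand: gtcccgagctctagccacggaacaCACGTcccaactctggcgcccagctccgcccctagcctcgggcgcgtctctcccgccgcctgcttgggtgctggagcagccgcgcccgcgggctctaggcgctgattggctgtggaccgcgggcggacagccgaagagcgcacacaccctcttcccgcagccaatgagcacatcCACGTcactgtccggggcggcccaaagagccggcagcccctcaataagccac
Ldha, chr7:46845554-46845803, plus strand: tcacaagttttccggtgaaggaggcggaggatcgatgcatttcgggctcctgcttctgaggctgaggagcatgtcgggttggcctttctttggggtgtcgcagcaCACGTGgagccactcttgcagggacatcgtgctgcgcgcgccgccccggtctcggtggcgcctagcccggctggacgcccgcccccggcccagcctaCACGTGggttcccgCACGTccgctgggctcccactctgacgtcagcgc

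In these windows the core began 60 bases before the start of Pfkfb3, 150 and 131 bases before that of Pgk1, 226 and 52 bases before that of Hk2, and 145, 48 and 34 bases before that of Ldha. The matches of Ldha at 145 and 48 bases are also E-boxes (CACGTG), the motif bound by Myc and Max, and were counted once each. The window of Tpi1 held no match. Pfkfb3 and Ldha each had another RefSeq start site, which is not shown. That of Pfkfb3 held a core 53 bases before it, also an E-box, and that of Ldha held none. Over windows reaching from 250 bases before to 50 after the start, 9 of the genes had 15 RefSeq windows, and 10 of the 15, from 8 genes, held the core on either strand. A pair of overlapping windows of Aldoa share 1 match, which is counted in each. Across all 32851 RefSeq windows of that length the share was 19.6%, and among the 9690 windows with at least 60% GC it was 26.5%, against 10 of 11 of these genes' windows with that GC content. Of the called genes, Pfkfb3 and Pgk1 held the core and moved in opposite directions on the scaled values, and Tpi1, the other gene called higher, had none in its window. These calls were lost once the counting error of the tumour value was added, and any link between core and direction was not tested. A match is a description of the letters only, and binding was not measured.

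The comparison of tumour with lymphoid cells was tested with limma on log2(scaled FPKM + 1) over 9800 genes whose mean FPKM was 1 or more. Of the 10 glycolysis genes, 9 entered the test. Called higher in the tumour library were 2 of 9, where 12.7% of all tested genes were called higher, and called lower was 1 of 9, where 9.17% of all were. The median log2 change of the 9 was -0.04, and that of all tested genes was -0.01. Scaled values of 4 genes exceeded both lymphoid libraries and those of 4 lay under both, where 41.3% and 42.6% of all tested genes did so. Past 1.5-fold against each lymphoid library, on scaled FPKM + 1, lay 1 gene that was higher, Pfkfb3, against 12.0% of all genes, and 1 that was lower, Pgk1, against 8.51%. These shares are near those of all genes, so the counts do not set the glycolysis genes apart.

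**Figure D1:**
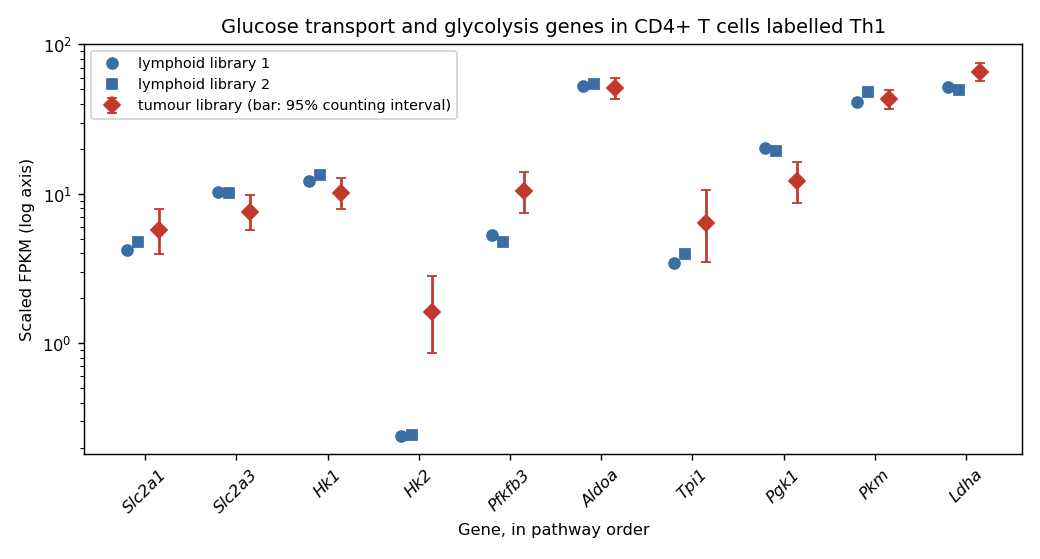
Scaled FPKM of the 10 genes (log axis) in pathway order, with circles and squares for lymphoid libraries 1 and 2 and a diamond for the tumour library, whose bar is the 95% counting interval. The diamonds of Pfkfb3 and Tpi1 lie above both lymphoid points and that of Pgk1 below them on this scale, and as deposited those of Pfkfb3 and Tpi1 would not lie higher.

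Slc2a1 encodes GLUT1, the main glucose carrier of activated T cells (ENSMUSG00000028645.11, chromosome 4, 119108711 to 119137983, plus strand, GRCm38). Its scaled FPKM was 4.19 and 4.74 in the lymphoid libraries and 5.70 in the tumour library. The tumour value was the highest of the 3, but its 95% Poisson interval of 3.97 to 7.92, from about 35 fragments, held both lymphoid values. Its log2 change of 0.30 ± 0.15 (SE) did not pass the test (limma, Benjamini-Hochberg adjusted p = 0.227). This and the other intervals cover counting error only.

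Slc2a3 encodes GLUT3, a carrier of higher glucose affinity (ENSMUSG00000003153.10, chromosome 6, 122727809 to 122801640, minus strand). It was at 10.3 and 10.2 scaled FPKM in the lymphoid libraries and 7.57 in the tumour library. Here the tumour library was the lowest, with an interval of 5.73 to 9.81 that held neither lymphoid value. The log2 change of -0.39 ± 0.15 did not pass after adjustment (limma, Benjamini-Hochberg adjusted p = 0.13). Within each library, where no scaling enters, Slc2a3 made up 71.0% and 68.3% of the summed FPKM of both carriers in the lymphoid libraries and 57.0% in the tumour library. GLUT3 RNA thus exceeded GLUT1 RNA per length in all 3 libraries, by the smallest margin in the tumour library. There the counting intervals overlapped, at 5.73 to 9.81 for Slc2a3 and 3.97 to 7.92 for Slc2a1. With 1 library against 2, the smallest p of an exact permutation test of such a share is 0.333, so none was tested.

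Hexokinases trap glucose in the cell by phosphorylating it. Hk1, the constitutive form (ENSMUSG00000037012.18, chromosome 10, 62268855 to 62379908, minus strand), was at 12.2 and 13.3 scaled FPKM in the lymphoid libraries and 10.2 in the tumour library. The tumour value was lowest, the change did not pass the test (log2 -0.30 ± 0.16, limma with Benjamini-Hochberg adjustment, adjusted p = 0.251), and its interval of 7.97 to 12.8 held 1 lymphoid value.

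Hk2, the inducible form (ENSMUSG00000000628.10, chromosome 6, 82725025 to 82774454, minus strand), was the least abundant of the 10 genes in every library, at 0.241 and 0.245 scaled FPKM in the lymphoid libraries and 1.63 in the tumour library. The tumour value was 6.75 and 6.65 times the lymphoid ones and rested on about 13 fragments, with an interval of 0.863 to 2.80. Its mean lay under 1 FPKM, so it was not in the main test. Without that filter 35.1% of all 20968 genes were called higher and so was Hk2 (log2 change 1.08, limma with Benjamini-Hochberg adjustment, adjusted p = 0.0108), but not once the counting error of the tumour value was added (adjusted p = 0.625). Among 1419 odorant and vomeronasal receptor genes, 57 (4.02%) reached the level of Hk2 in the tumour library, against 13 (0.916%) and 26 (1.83%) in the lymphoid libraries. Hk2 made up 13.8% of summed Hk1 and Hk2 FPKM in the tumour library and 1.95% and 1.81% in the lymphoid ones. Hk1 RNA thus exceeded Hk2 RNA per length in all 3 libraries.

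**Figure D2:**
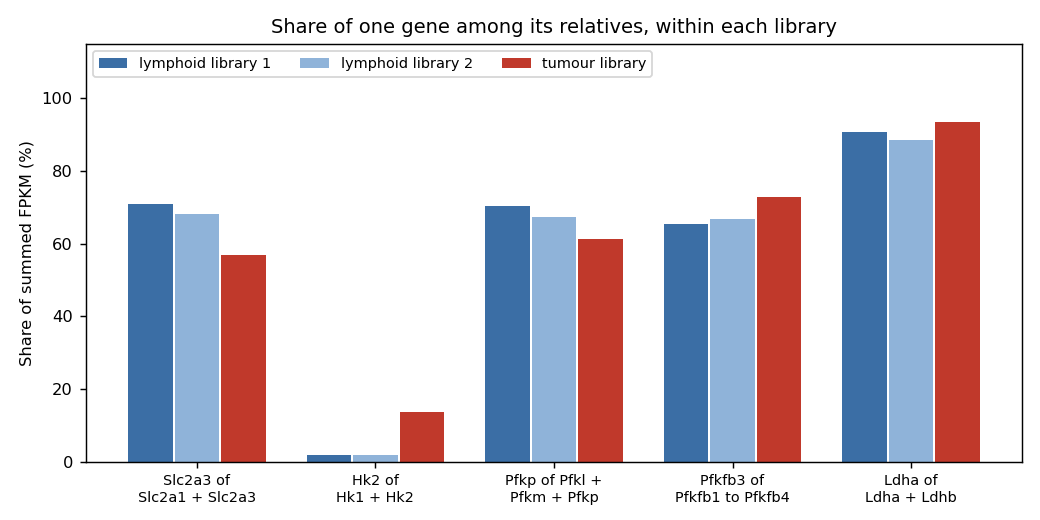
Share (%) that 1 gene held of the summed FPKM of its relatives, within each library, as bars for lymphoid libraries 1 and 2 and the tumour library, a quantity that no scaling changes. The tumour bar is the lowest for Slc2a3 (57.0%) and the highest for Hk2 (13.8%), which stays under the share of Hk1 in all 3 libraries.

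Pfkfb3 makes and degrades the bisphosphate that activates phosphofructokinase, with the balance far toward making it (ENSMUSG00000026773.19, chromosome 2, 11471433 to 11554077, minus strand). Its scaled FPKM was 5.31 and 4.77 in the lymphoid libraries (mean 5.04 ± 0.384, SD, n = 2) and 10.4 in the tumour library. The tumour value was 1.95 and 2.18 times the lymphoid ones, and its interval of 7.47 to 14.0, from about 42 fragments, held neither of them. On scaled values Pfkfb3 rose by a log2 change of 0.91 ± 0.16 (limma, Benjamini-Hochberg adjusted p = 0.0146), the largest among the 9 tested, whereas as deposited its change was -0.12, with 6.87 and 6.35 FPKM in the lymphoid libraries and 6.0 in the tumour library. The median gene moved by -0.96 as deposited, and Pfkfb3 lay 0.84 to 0.95 above it over the scalings tried. Each scaling divides a library by a constant, so apart from the pseudocount this distance is fixed and is no separate support. With the counting error of the tumour value added, the call was lost (limma, Benjamini-Hochberg adjusted p = 0.179, over all alternatives 8.07e-06 to 0.625).

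Within libraries, Pfkfb3 was 65.4% and 66.7% of the summed FPKM of Pfkfb1 to Pfkfb4 in the lymphoid libraries and 72.9% in the tumour library, the highest of the 3. Pfkp, the phosphofructokinase gene with the most RNA here, was at 11.1 and 10.9 scaled FPKM in the lymphoid libraries and 11.3 in the tumour library, and was not called. The ratio of Pfkfb3 to Pfkp was 0.477 and 0.436 in the lymphoid libraries and 0.919 in the tumour library. Against Hk1 the ratio of Pfkfb3 was 0.436, 0.358 and 1.02, and against Tigar, whose product degrades the same bisphosphate, it was 3.51, 3.83 and 5.22. In each of these ratios the tumour library was the highest. They share the numerator Pfkfb3, which was called higher on these same values, so they are no separate support for that call. The tumour value of Tigar rested on about 14 fragments, with an interval of 1.08 to 3.35 that held both lymphoid values. Among the 10 genes Pfkfb3 was the seventh in order of mean lymphoid level and the fifth in the tumour library. Annotated coding transcripts of Pfkfb3 range from 1478 to 4801 nt, and 1 value per gene does not show which were used.

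Aldoa, the muscle-type aldolase that splits fructose bisphosphate (ENSMUSG00000030695.16, chromosome 7, 126795234 to 126800751, minus strand), was at 53.0 and 54.7 scaled FPKM in the lymphoid libraries and 50.9 in the tumour library. The tumour interval of 43.0 to 59.9 held both lymphoid values, and the log2 change of -0.08 ± 0.18 was not called (limma, Benjamini-Hochberg adjusted p = 0.794). The tumour value was the lowest of the 3, within counting error of both lymphoid values.

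Tpi1, triose phosphate isomerase (ENSMUSG00000023456.15, chromosome 6, 124810586 to 124814296, minus strand), was at 3.46 and 3.93 scaled FPKM in the lymphoid libraries (mean 3.69 ± 0.329, SD, n = 2) and 6.36 in the tumour library. The tumour value was 1.84 and 1.62 times the lymphoid ones, but rested on about 15 fragments, and its interval of 3.52 to 10.6 held 1 of them. On scaled values it rose by a log2 change of 0.65 ± 0.15 (limma, Benjamini-Hochberg adjusted p = 0.0365), while as deposited the change was -0.32, or 0.64 above the median gene. The call was lost with counting error added (limma, Benjamini-Hochberg adjusted p = 0.481, over all alternatives 0.000234 to 0.627). It was also lost after scaling to totals without small RNA genes (0.0548), without the filter (0.0684) and with size factors from all genes above 0 (0.104). The ratio of Tpi1 to Aldoa was 0.0653 and 0.0718 in the lymphoid libraries and 0.125 in the tumour library.

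At its 3′ end Tpi1 overlaps Spsb2 on the opposite strand by 34 nt. Spsb2, which encodes an adaptor of a ubiquitin ligase, was at 0.362 and 0.429 scaled FPKM in the lymphoid libraries and 4.18 in the tumour library, on about 10 fragments. It passed the filter on the mean only through its tumour value, so its call is not used. The kit marks strand, but whether the values were computed by strand is not given in the sources used here, so reads from the overlap may not be told apart. A pseudogene matched 19.3% of the Tpi1 transcript at an identity of at least 95%, and its part in the value was not tested.

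Pgk1, the first enzyme of the pathway to yield ATP (ENSMUSG00000062070.12, chromosome X, 106187100 to 106203699, plus strand), was at 20.4 and 19.3 scaled FPKM in the lymphoid libraries (mean 19.8 ± 0.811, SD, n = 2) and 12.1 in the tumour library. This was 0.594 and 0.629 times the lymphoid values, and the tumour interval of 8.73 to 16.4, from about 42 fragments, held neither. On scaled values Pgk1 fell by 0.67 ± 0.17 on the log2 scale (limma, Benjamini-Hochberg adjusted p = 0.0425), while after division by library totals the change was 0.03, where the median gene was at 0.62. Relative to the median gene Pgk1 lay lower by log2 differences of -0.59 to -0.80 over the scalings tried. Scaling barely alters that distance by construction, so it does not test the fall. The call was lost with counting error added (limma, Benjamini-Hochberg adjusted p = 0.328, over all alternatives 0.00269 to 0.943), without the filter (0.0527) and with a filter at 5 FPKM (0.0791).

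Gapdh, the enzyme just before Pgk1, was at 81.1 and 73.6 scaled FPKM in the lymphoid libraries and 87.6 in the tumour library and was not called. The ratio of Pgk1 to Gapdh was 0.252 and 0.262 in the lymphoid libraries and 0.138 in the tumour library, and that of Tpi1 to Pgk1 was 0.170, 0.204 and 0.525. Both ratios lay outside the lymphoid pair in the tumour library, and no scaling enters them. Each holds Pgk1, called lower on these same values, and that of Tpi1 to Pgk1 also holds Tpi1, called higher. They are therefore no separate support for those calls, and the tumour value of Tpi1 rested on about 15 fragments. Pgk1 is uncertain in another respect, since 4 pseudogenes, none with a row of its own, matched 68.8% of its transcript at an identity of at least 95%. How the authors' counting treated reads shared with them is not given in the sources used here.

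Pkm, pyruvate kinase of muscle and proliferating cells (ENSMUSG00000032294.17, chromosome 9, 59656368 to 59679375, plus strand), was at 41.0 and 47.7 scaled FPKM in the lymphoid libraries and 43.1 in the tumour library. The tumour value lay between the lymphoid ones, with a log2 change of -0.04 ± 0.20 (limma, Benjamini-Hochberg adjusted p = 0.917). Splice forms of Pkm, which differ in their regulation, cannot be separated with 1 value per gene. A pseudogene without a row matched 65.5% of its transcript.

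Ldha, the lactate dehydrogenase subunit that favours lactate production (ENSMUSG00000063229.15, chromosome 7, 46841475 to 46855627, plus strand), was at 51.8 and 49.8 scaled FPKM in the lymphoid libraries and 65.6 in the tumour library. This was 1.27 and 1.32 times the lymphoid values, and the tumour interval of 56.8 to 75.5, from about 197 fragments, held neither. The log2 change of 0.36 ± 0.18 did not pass the test (limma, Benjamini-Hochberg adjusted p = 0.215). As deposited the FPKM of Ldha was 67.0 and 66.3 in lymphoid cells and 38.0 in the tumour library, a log2 change of -0.79.

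Ldha made up 90.7% and 88.7% of the summed FPKM of Ldha and Ldhb, the subunit that favours the reverse reaction, in the lymphoid libraries and 93.4% in the tumour library. The ratio of Ldha to Pkm was 1.26 and 1.04 in the lymphoid libraries and 1.52 in the tumour library, and that of Ldha to Pgk1 was 2.54, 2.58 and 5.42. Relative to Pkm and to Pgk1, Ldha was thus higher in the tumour library than in either lymphoid library. No counting interval of a ratio was computed, and Pgk1 is the gene called lower on these same values. The tumour value of Ldhb rested on about 11 fragments, with an interval of 2.35 to 8.21 that held both lymphoid values. For Ldha, 4 pseudogenes without rows matched 55.0% of the transcript.

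In order of level, Aldoa was first, Ldha the second, Pkm the third and Pgk1 the fourth in the lymphoid libraries by mean scaled FPKM. In the tumour library Ldha stood before Aldoa, though their counting intervals overlapped. Ldha made up 25.7% and 23.8% of the summed FPKM of the 10 genes in the lymphoid libraries and 30.7% in the tumour library. Pgk1 made up 10.1% and 9.23%, against 5.67% in the tumour library. Aldoa and Pkm changed little in share, at 26.3%, 26.2% and 23.8% for Aldoa and 20.3%, 22.9% and 20.2% for Pkm.

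Adding the counting error of the tumour value left 0 of the 9 genes called higher or lower by limma, and 2 of them, Pfkfb3 and Pgk1, had an unadjusted p under 0.05. Of all 9699 genes in that fit 3.27% were called higher and 0.278% lower. Direction against the lymphoid libraries also turned with the scaling. As deposited, where the median tested gene moved by -0.96, all 9 tested glycolysis genes had negative log2 changes with a median of -1.19. With library totals, where the median gene moved by 0.62, all 9 were positive with a median of 0.69. Measured from the median gene, changes were 0.28 to 0.31 for Slc2a1 and 0.16 to 0.48 for Ldha. They were -0.34 to -0.47 for Slc2a3, -0.23 to -0.41 for Hk1, -0.28 to 0.03 for Aldoa and -0.23 to 0.07 for Pkm. Since a scaling shifts each gene and the median nearly alike, such ranges do not test these directions.

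**Figure D3:**
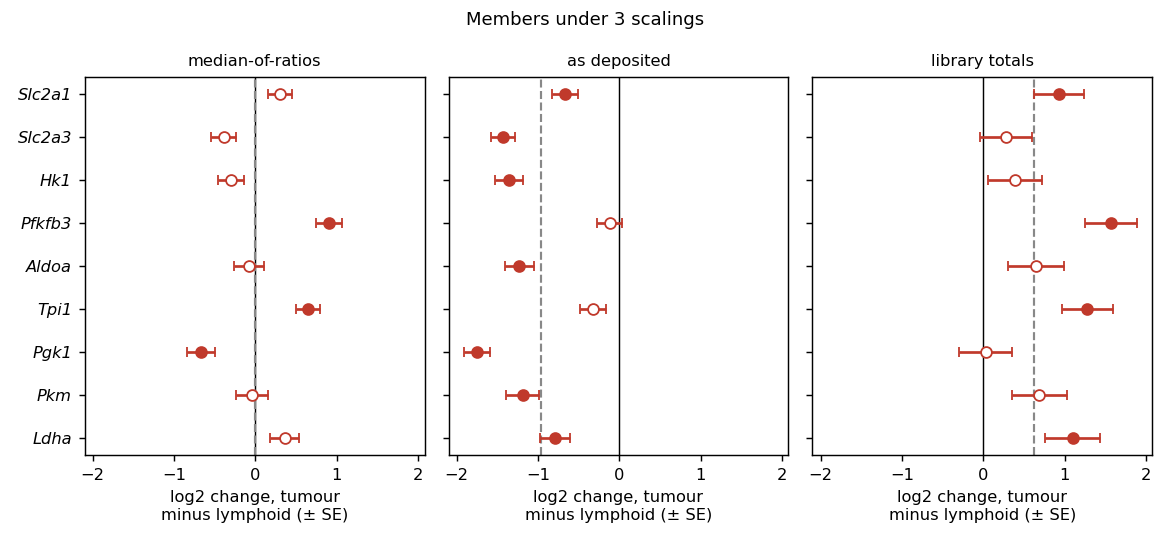
Log2 change, tumour minus lymphoid, of the 9 tested genes (points, with bars of ± SE; filled where called) on median-of-ratios scaled values, on values as deposited and after division by library totals, with a dashed line at the median of all tested genes. The whole set shifts with the scaling, to below 0 as deposited and above 0 with library totals, while Pfkfb3 stays to the right of the dashed line and Pgk1 to its left. The dashed line shifts with the points by construction, so their places beside it are no test.

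The other genes around the pathway were described through 11 lists. Of 148 listed genes 147 had a row and 107 were tested, with a median log2 change of -0.09. Where 12.7% of all tested genes were called higher and 9.17% lower, 8 of the 107 were called higher and 10 lower on scaled values. With counting error added, 3 stayed past the threshold as higher and 0 as lower, and those 3 were Emb, Got1 and Pdk4, the last of which passed the filter on the mean only through its tumour value. At the entry of the pathway no other gene was called. Among other hexose transporters 2 of 10 were tested, the more abundant being Slc2a8 at 1.34 and 1.48 scaled FPKM in the lymphoid libraries and 1.77 in the tumour library. Among 7 tested genes of glucose phosphorylation and fructose bisphosphate metabolism, the most abundant was Gpi1, glucose phosphate isomerase, at 24.8, 24.6 and 22.7.

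Of 6 other tested lower glycolysis enzymes 2 were called higher. Bpgm, which makes the bisphosphoglycerate that lowers haemoglobin's oxygen affinity in red cells, was at 2.04 and 2.77 scaled FPKM in the lymphoid libraries and 7.15 in the tumour library, a log2 change of 1.27 (limma, Benjamini-Hochberg adjusted p = 0.00889). Markers of red cells summed to 2.13, 1.94 and 2.46, with Hba-a1, Hba-a2 and Hbb-bs at 0 in the tumour library. Eno3, the muscle enolase, was at 1.18, 1.54 and 2.91 (log2 change 0.74; as deposited -0.05).

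Among lactate and monocarboxylate genes 1 of 4 tested was called, Emb, which encodes embigin, a chaperone of lactate carriers. Its scaled FPKM was 22.1 and 20.1 in the lymphoid libraries and 61.0 in the tumour library, a log2 change of 1.49 (limma, Benjamini-Hochberg adjusted p = 0.00494, and 0.0199 with counting error).

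The 14 tested genes of pyruvate entry to mitochondria gave 1 higher and 4 lower calls, with a median of -0.11. Of all tested genes 9.17% were called lower, and with counting error 0 of the 4 lower calls stayed. Lower were Mpc1, a subunit of the mitochondrial pyruvate carrier (5.74, 6.31 and 3.10 scaled FPKM in lymphoid libraries 1 and 2 and the tumour library), and Dld, a subunit of pyruvate dehydrogenase and related complexes (9.01, 9.0 and 2.58). Of the kinases that inhibit pyruvate dehydrogenase, Pdk1 (8.43, 8.10 and 4.70) and Pdk3 (2.01, 2.37 and 0.794) were lower. Pdk4 (0.784, 0.415 and 4.53) was the 1 gene called higher, but it entered the test only through its tumour value, so that call carries no weight here. The tumour value of Mpc1 rested on about 5 fragments, with an interval of 1.06 to 7.02 that held both lymphoid values. That of Pdk3 rested on about 3 fragments, and its interval held 1 lymphoid value. Mpc2, of the same carrier as Mpc1, was not called (8.06, 7.08 and 8.63).

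In the branches that leave glycolysis, 1 of 10 tested pentose phosphate genes was lower, Prps2, which makes the ribose donor of nucleotides (7.68, 6.43 and 3.27 scaled FPKM). The median of that list was -0.37. Of 13 tested glycogen and hexosamine genes, Gbe1, the glycogen branching enzyme (3.07, 2.99 and 1.39), and Uap1, which makes the UDP-linked amino sugar (2.89, 2.68 and 0.691), were lower. Pgm2l1, a phosphoglucomutase relative, was higher on scaled values (2.27, 2.00 and 3.95), with a log2 change of 0.66 that was -0.21 as deposited. None of 6 tested serine branch genes was called by limma, and the most abundant by its mean over the 3 libraries was Phgdh, its first enzyme, at 5.18, 6.66 and 9.08, although Mthfd2 (6.98, 6.82 and 4.59) exceeded it in both lymphoid libraries.

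Of 8 tested NADH shuttle genes, Got1, the cytosolic aspartate aminotransferase, was higher at 19.0 scaled FPKM in the tumour library against 4.67 and 3.84. Its log2 change of 1.93 was the largest of the 107 tested genes (limma, Benjamini-Hochberg adjusted p = 0.00183, and 0.0157 with counting error). Slc25a11, the oxoglutarate carrier of the same shuttle, was lower (9.87, 8.37 and 4.28). Among 15 citric acid cycle genes 1 was called, Sucla2, a subunit of succinate-CoA ligase (7.26, 6.96 and 3.51), which was lower.

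Of 22 tested regulators of glycolysis genes 2 were called higher and 1 lower, with a median of 0.04. Hif1a, which encodes the oxygen-regulated subunit of the hypoxia-inducible factor, was at 18.1 and 15.3 scaled FPKM in the lymphoid libraries and 32.8 in the tumour library, a log2 change of 0.94 on scaled values and -0.19 as deposited (limma, Benjamini-Hochberg adjusted p = 0.0226 for the former). Egln3, a prolyl hydroxylase that marks this factor for degradation and is itself a target of it, was at 1.23, 0.940 and 2.54. Mlx, a partner of the glucose-sensing factor MondoA, was lower at 8.32, 8.18 and 3.52.

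**Figure D4:**
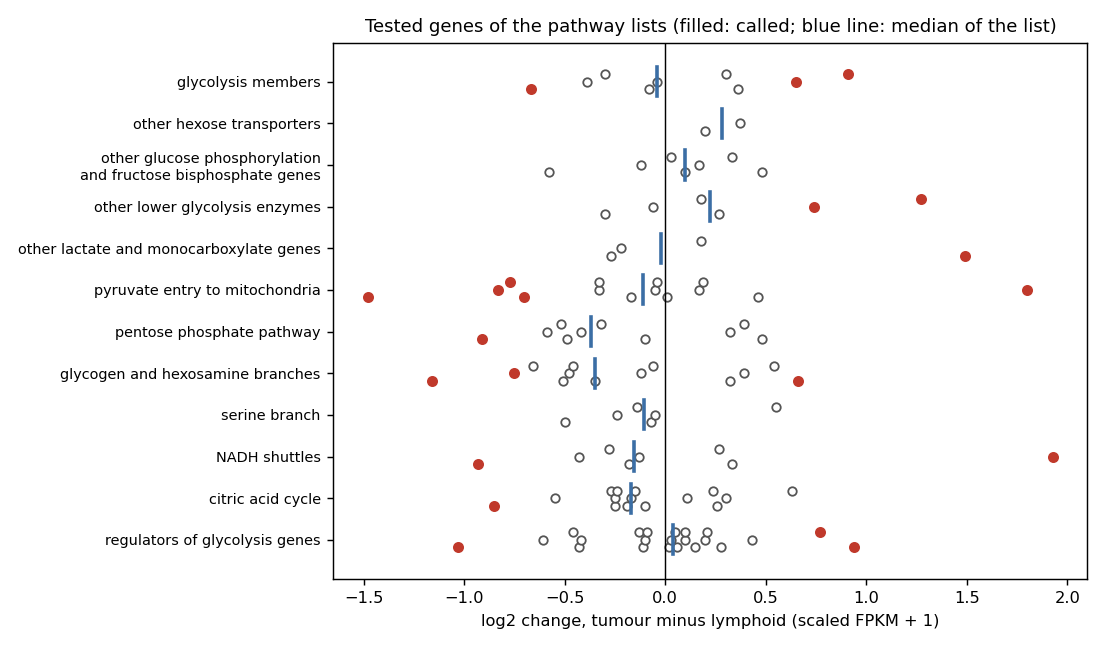
Log2 change, tumour minus lymphoid, on log2(scaled FPKM + 1) for each tested gene of the glycolysis set and the 11 surrounding lists (circles, filled where called), with a blue line at each list's median. On this scale calls lie on both sides of 0 and list medians lie between -0.37 and 0.29; as deposited, where the median gene moved by -0.96, most lie below 0.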

How the data were processed

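RNA was measured in 3 libraries of CD4+ T cells, each from total RNA of 300000 cells per the labels' protocols, depleted of ribosomal RNA, made into strand-specific libraries and read from both ends for 75 bp. The submitters' processing notes name mm10, kallisto and DESeq2, without roles. The deposited values were taken as FPKM, a unit inferred from the values and not stated. The sources used here do not give the authors' annotation or filters. Where a symbol had several rows, the one with the highest mean was kept.

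Size factors were medians of ratios over genes whose mean was 1 FPKM or more and that had no value of 0. Scaled FPKM plus a pseudocount of 1 was tested on the log2 scale with limma 3.58.1 (R 4.3.3, mean-variance trend, Benjamini-Hochberg adjustment, calls at an adjusted p under 0.05). With 1 residual degree of freedom, the tumour library is assumed to vary like the lymphoid ones. A fold change on this scale understates the change of low genes. The limma step was checked on simulated data. Simulation cannot show whether the real tumour library meets the assumption about its variation, so that check does not bear on the calls. Other scalings, filters, pseudocounts, a fit without trend and summed rows were tried.

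Fragments were estimated from the step that FPKM times length takes among single-transcript genes of at least 1000 nt and under 2 FPKM. Counting error added the Poisson variance of the tumour value to the squared SE. Coordinates and lengths came from GENCODE M21 (GRCm38, the assembly of mm10), where 21691 symbols matched by name and 1235 by an older symbol. Near-identical copies were sought with blastn 2.17.0 (at least 150 nt and 95% identity).

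The 10 genes and all lists were chosen with earlier results of these data known. Named beside them were, for each other list, every called gene or else its most abundant tested gene. Gapdh, Pfkp, Pfkfb1, Pfkfb2, Pfkfb4, Tigar, Ldhb, Mpc2 and Spsb2 were named as relatives or neighbours after values had been seen.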

Additional observations from a re-analysis of the deposited data

How the results depend on the processing

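Of the 9 glycolysis genes 2 were called higher and 1 lower, of the other pathway genes 8 and 10, and of all tested genes 1246 and 899. As deposited, these counts became 0 and 7, 2 and 90, and 465 and 7620. With library totals they became 4 and 0, 41 and 2, and 4122 and 288. With totals without small RNA genes 1 glycolysis gene was higher and 16 other pathway genes were lower. Without the filter 0 glycolysis genes were lower, 27 other pathway genes were higher and 7364 of all genes were. At a mean of at least 5 FPKM the counts were 1 and 0, 2 and 4, and 211 and 191, with fewer genes tested. With counting error they were 0 and 0, 3 and 0, and 317 and 27. Of alternatives chosen after seeing the data, the same without the filter gave 0 in each of the 6 counts (1102 of all genes had an unadjusted p under 0.05 by limma), and size factors from all genes above 0 gave 1 and 2, 4 and 27, and for all genes 1926 lower. Higher and lower calls split with 58.1% higher on scaled values, 5.75% as deposited, 93.5% with library totals, 49.5% with totals without small RNA genes and 30.3% with the added size factors.

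Of glycolysis genes at least 1.5-fold higher (1) and lower (1), there were 0 and 6 as deposited and 5 and 0 with library totals, and 2 were lower with the added size factors. Leaving out a lymphoid library gave 1 to 2 higher, the 2 without lymphoid replicate 2.

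Log2 changes reversed as deposited for Slc2a1 (-0.67), Pfkfb3 (-0.12), Tpi1 (-0.32), Ldha (-0.79), Eno3 (-0.05), Pgm2l1 (-0.21) and Hif1a (-0.19), and with library totals for Slc2a3 (0.28), Hk1 (0.39), Aldoa (0.65), Pgk1 (0.03) and Pkm (0.69). A scaling shifts each gene and the median gene nearly alike, and the median gene moved by -0.96 as deposited and 0.62 with library totals. Filters and counting error left these log2 changes as they were, so they do not bear on the reversals. Why the scalings differ so much was not tested. No paired analysis was possible because there is only 1 tumour library. Among the 10 glycolysis genes, the shallow tumour library limits Hk2 and Tpi1 most, on about 13 and 15 fragments. Some called genes of the other lists rested on fewer. These include Pdk3 and Uap1 on about 3, Mpc1 on 5, Eno3 and Gbe1 on 8, and Dld and Mlx on 12.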
